A study of Mus musculus with 3 samples.

Results

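The p53 and Rb tumour suppressor axis was followed here through 6 genes, the p53 gene Trp53, its inhibitors Mdm2 and Mdm4, and the pocket protein genes Rb1, Rbl1 and Rbl2. They were taken by symbol from count tables that hold 41743 symbols, and all 6 were present and passed the filter on low counts. The tables come from RNA immunoprecipitation followed by sequencing (RIP-seq), which counts the RNA recovered with an antibody. The antibody was anti-ezrin in 2 libraries (ezrin replicates 1 and 2) and normal mouse IgG in 1 library. All 3 libraries are untreated K7M2 cells, a mouse osteosarcoma line, with the genotype Ezrin -/- plus an Ezrin T567A transgene. The endogenous gene was removed by CRISPR/Cas9 and the mutant was put back by stable transfection, and the derived lines are called COL3A. IgG cells therefore carry the same knockout and transgene. T567A ezrin lacks the threonine whose phosphorylation opens the protein. The labels give neither the promoter of the transgene nor the number of clones, and nothing in them tells if separate cultures were used for the ezrin pair, so p-values measure a spread that may be technical. The question, as the title of the study has it, is what RNA is bound by ezrin in its closed form, and no library of total RNA is analysed here.

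p53 is a transcription factor that halts the cell cycle or triggers cell death after damage. Mdm2 marks p53 for degradation and Mdm4, also called MDMX, blocks its activity, while the Arf protein made from Cdkn2a restrains Mdm2. Rb1, Rbl1 (p107) and Rbl2 (p130) hold back E2F transcription factors until cyclin D with Cdk4 or Cdk6 phosphorylates them. Both pathways are often lost in osteosarcoma.

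The summed counts were 19676595 for ezrin replicate 1, 16196329 for replicate 2 and 10124580 for IgG. The IgG library stood apart in content: reads at Gm26917 and Gm42418, remnants of ribosomal RNA, made up 0.122% and 0.198% of counts in the ezrin libraries against 16.5% in IgG. Protein-coding genes made up 97.5% and 98.1% of counts in the ezrin libraries and 74.7% in IgG. The part of these differences in the results was not tested. Levels between libraries are given as CPM (counts scaled to a common library total) after TMM scaling, which sets the bulk of genes level. The targeted gene, Ezr, had 349 and 350.5 CPM in the ezrin libraries against 155 CPM in IgG, and the counts cannot separate transgene from locus. Of 10 osteoblast and bone matrix markers, Col1a1, Col1a2, Sparc, Spp1 and Runx2 each had at least 584 counts in every library. Alpl had 17 to 33 counts, and Sp7, Bglap and Ibsp had 0 or 1, so the list was present in part. Of 7 macrophage markers, Csf1r was abundant and the other 6 had 0 to 7 counts. Epithelial and erythroid lists had summed levels under 1 CPM in every library.

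All 6 messages were detected in K7M2 cells, with at least 1 CPM in each of the 3 libraries, at levels that ranged widely. Trp53 was the most abundant per length, followed by Mdm2 and Rbl1, while Mdm4, Rb1 and Rbl2 were much less abundant. Compared with IgG, 1 of the 6, Mdm4, was lower in the ezrin libraries, 0 were higher and 5 were not called. Calls are at a Benjamini-Hochberg adjusted p of 0.05 in edgeR's quasi-likelihood fit, in which 19.0% of 12478 tested genes were higher, 17.4% lower and 36.4% either. A single lower gene of 6 is close to that background. DESeq2 called 0 higher and 1 lower, where 14.0% and 8.82% of all genes were. At an unadjusted edgeR p under 0.05 the members held 0 higher and 2 lower. The share of all genes at that unadjusted p is not given here, so the 2 have no background beside them. In CPM, both ezrin libraries lay above IgG for 4 members and below it for 2. Among all tested genes, 42.6% had both above and 44.3% had both below.

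**Figure D1:**
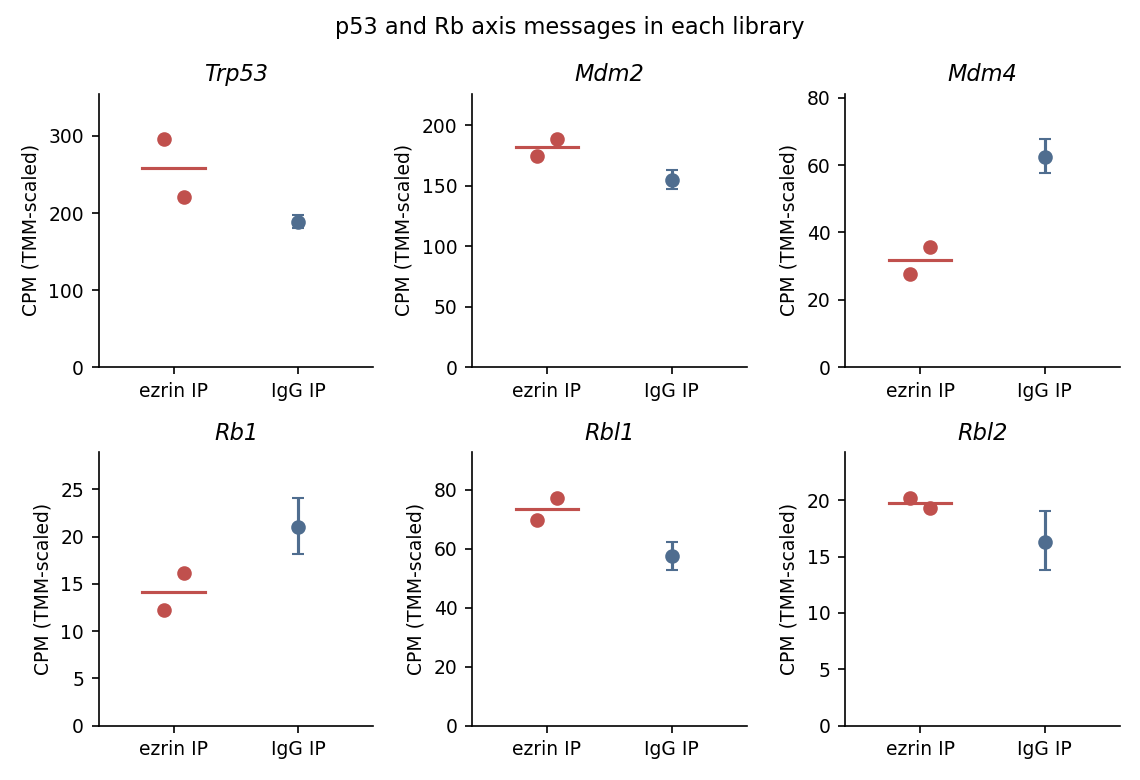
TMM-scaled CPM of the 6 members, with the 2 ezrin libraries as points left and their mean as a line, and the IgG library right with its exact 95% Poisson interval for counting error. Mdm4 and Rb1 lie lower in both ezrin libraries than in IgG, and the other 4 lie higher.

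Trp53 (chromosome 11, 69580348 to 69591873, GRCm38.p6) encodes p53 itself. It had 295.9 and 221 CPM in ezrin replicates 1 and 2, against 189 CPM in IgG. The ezrin libraries differed from each other by more than replicate 2 differed from IgG. The log2 fold was 0.45 (SE 0.24, adjusted p = 0.117 by edgeR), so it was not called. The 95% interval, from −0.01 to 0.92, does not exclude a fold of up to 1.89. Deposited RPKM give a level per length of gene and per library total. The total used is not stated, and it did not scale with the summed counts above. In RPKM, Trp53 reached 61.4 and 47.0 in the ezrin libraries and 30.3 in IgG. That placed it above 94.6%, 93.0% and 93.1% of the protein-coding genes with a count, in the same order. The related Trp63 had 19, 21 and 18 counts and Trp73 had 0 counts in each library, so of the family Trp53 alone was found at a sizeable level.

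Mdm2 (chromosome 10, 117688875 to 117710758), the ubiquitin ligase that p53 itself switches on, was second. Its levels were 175 and 189 CPM in the ezrin libraries and 155 CPM in IgG. The groups did not overlap, but the log2 fold of 0.23 (SE 0.24, adjusted p = 0.465 by edgeR) was not called, with a 95% interval from −0.23 to 0.70. After cyclic loess, which removes trends with expression level, it turned to −0.03. RPKM were 28.8 and 31.9 in the ezrin libraries and 19.8 in IgG, above 88.0%, 89.3% and 88.7% of protein-coding genes with a count.

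Mdm4 (chromosome 1, 132986105 to 133030587) was the member called different from IgG. It had 27.7 and 35.8 CPM in the ezrin libraries, against 62.5 CPM in IgG, whose exact 95% interval for counting error runs from 57.6 to 67.7. Both ezrin libraries lay well below that interval. The ezrin mean was 31.7 ± 5.74 CPM (SD, n = 2), an SD that does not enter the SE of the fit. The log2 fold was −0.98 (SE 0.24, adjusted p = 0.000401 by edgeR), a level 1.97 times higher in IgG. As a log2 ratio of single libraries it was −1.15 for ezrin replicate 1 and −0.79 for replicate 2. It was also called by DESeq2 (adjusted p = 0.0121), and adjusted p ranged from 9.00e-05 to 0.158 over 8 alternatives, of which 6 called it. Neither RPKM setting called it, and there the all-gene median stood at 0.22 or 0.34. With log2(RPKM + 1) the log2 fold was −0.41 (limma adjusted p = 0.145), or −0.63 relative to that median. Of the members, RPKM settings called 3 higher (Trp53, Mdm2 and Rbl1) and 0 lower, where 29.9% and 30.0% of all genes were higher and 7.73% and 6.76% lower. With library size only, Trp53 was called higher, as were 23.0% of all genes.

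**Figure D2:**
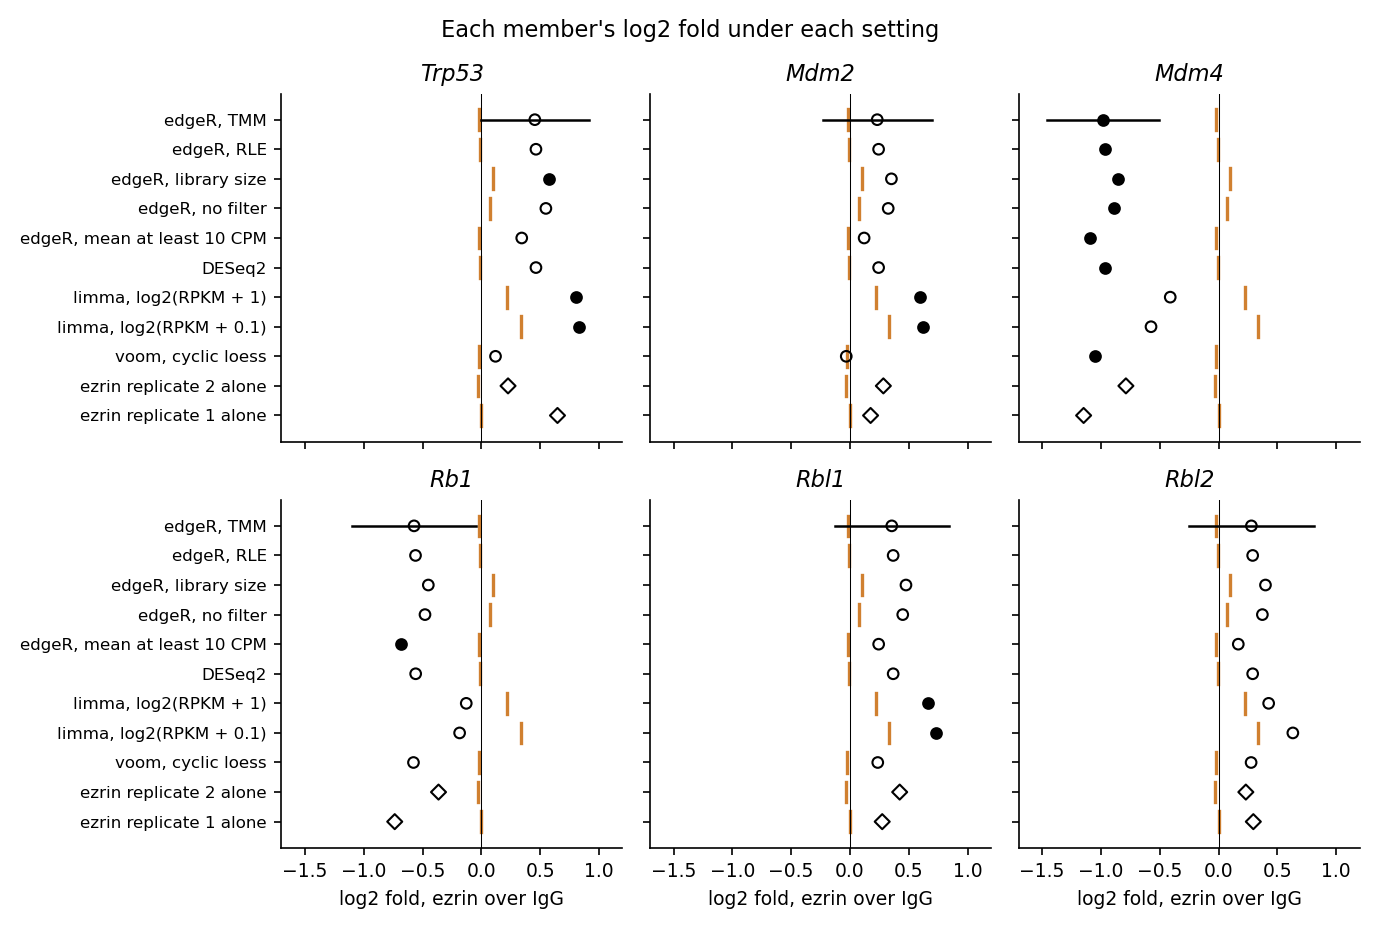
Log2 fold of ezrin IP over IgG IP for each member under each setting, filled where the adjusted p was below 0.05, open where not, and as diamonds for single ezrin libraries with no test; the bar is the 95% interval and orange ticks mark the median of all genes. Mdm4 stays left of 0 throughout, from −1.15 to −0.41, and Mdm2 crosses 0 after cyclic loess.

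Per length, Mdm4 was far rarer than Mdm2. RPKM of Mdm4 were 1.57 and 2.08 in the ezrin libraries and 2.74 in IgG, above 34.8%, 37.5% and 47.5% of protein-coding genes with a count. The ratio of Mdm2 to Mdm4 RPKM within a library needs no scaling between libraries. It was 18.4 and 15.3 in the ezrin libraries and 7.21 in IgG. Relative to Mdm2, Mdm4 was therefore rarer in both ezrin libraries than in IgG, whichever scaling is used. The ratio of Mdm2 to Trp53 was 0.470 and 0.679 in the ezrin libraries and 0.653 in IgG, so there the groups overlapped. Count over RPKM gave Mdm4 a counted length 3.66 times that of Trp53, the longest of the 6, and Mdm2 one of 1.26 times.

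Rb1 (chromosome 14, 73192858 to 73325951) encodes the retinoblastoma protein. Its counts were 245 and 270 in the ezrin libraries and 201 in IgG. That is 12.2 and 16.1 CPM in the ezrin libraries against 21.0 CPM in IgG, with a counting interval from 18.2 to 24.1. The ezrin libraries lay below IgG, yet the log2 fold of −0.57 (SE 0.27, adjusted p = 0.0781 by edgeR) was not called. It passed on the lower side where genes under a mean of 10 CPM were left out (adjusted p = 0.0370). RPKM were 1.70 and 2.30 in the ezrin libraries and 2.27 in IgG, above 35.8%, 39.2% and 43.5% of protein-coding genes with a count. Rb1 message was thus present, though among the lower levels of expressed genes.

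Rbl1 (chromosome 2, 157145893 to 157204534) encodes p107, the pocket protein found mainly in cycling cells. It had 69.7 and 77.4 CPM in the ezrin libraries and 57.5 CPM in IgG. Both ezrin values were higher, by less than the test could call (log2 fold 0.36, SE 0.25, adjusted p = 0.263 by edgeR, 95% interval −0.13 to 0.84). RPKM were 9.76 and 11.1 in the ezrin libraries and 6.23 in IgG, so Rbl1 was the most abundant pocket protein message per length in every library. Within a library, the RPKM ratio of Rbl1 to Rb1 was 5.73 and 4.83 with anti-ezrin and 2.75 with IgG.

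Rbl2 (chromosome 8, 91070057 to 91123844) encodes p130, the pocket protein known for quiescent cells. Its counts, 406 and 324 in the ezrin libraries and 156 in IgG, were the fewest of the 6 in IgG. They correspond to 20.2 and 19.3 CPM in the ezrin libraries against 16.3 CPM in IgG. The IgG counting interval, 13.8 to 19.1, ended just below the ezrin values, and the gene was not called (log2 fold 0.28, SE 0.27, adjusted p = 0.442 by edgeR, 95% interval −0.26 to 0.81). RPKM were 2.25 and 2.20 in the ezrin libraries and 1.40 in IgG. The ratio of Rbl1 to Rbl2 RPKM was 4.35 and 5.05 with anti-ezrin and 4.45 with IgG, and the IgG value lay between those of the ezrin libraries.

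Ordered by RPKM, Trp53, Mdm2 and Rbl1 held ranks 1 to 3 among the members in all 3 libraries. The order of Mdm4, Rb1 and Rbl2 changed from library to library, and their RPKM in the ezrin libraries averaged 1.82 ± 0.363, 2.004 ± 0.426 and 2.22 ± 0.0317 (SD, n = 2 each). The values of Rb1 overlapped those of both neighbours, while both values of Rbl2 lay above both of Mdm4. The sources used here do not tell whether counting used strand, so reads of overlapping genes cannot be told apart. Lpar6 lies within Rb1 and had 39 and 31 counts with anti-ezrin and 13 with IgG. Aktip overlaps Rbl2 and had 538 and 480 counts with anti-ezrin and 286 with IgG. The noncoding Gm41953 and the pseudogene Gm29257 overlap Mdm4 and the pseudogene Gm14277 overlaps Rbl1, with no counts of their own used here.

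**Figure D3:**
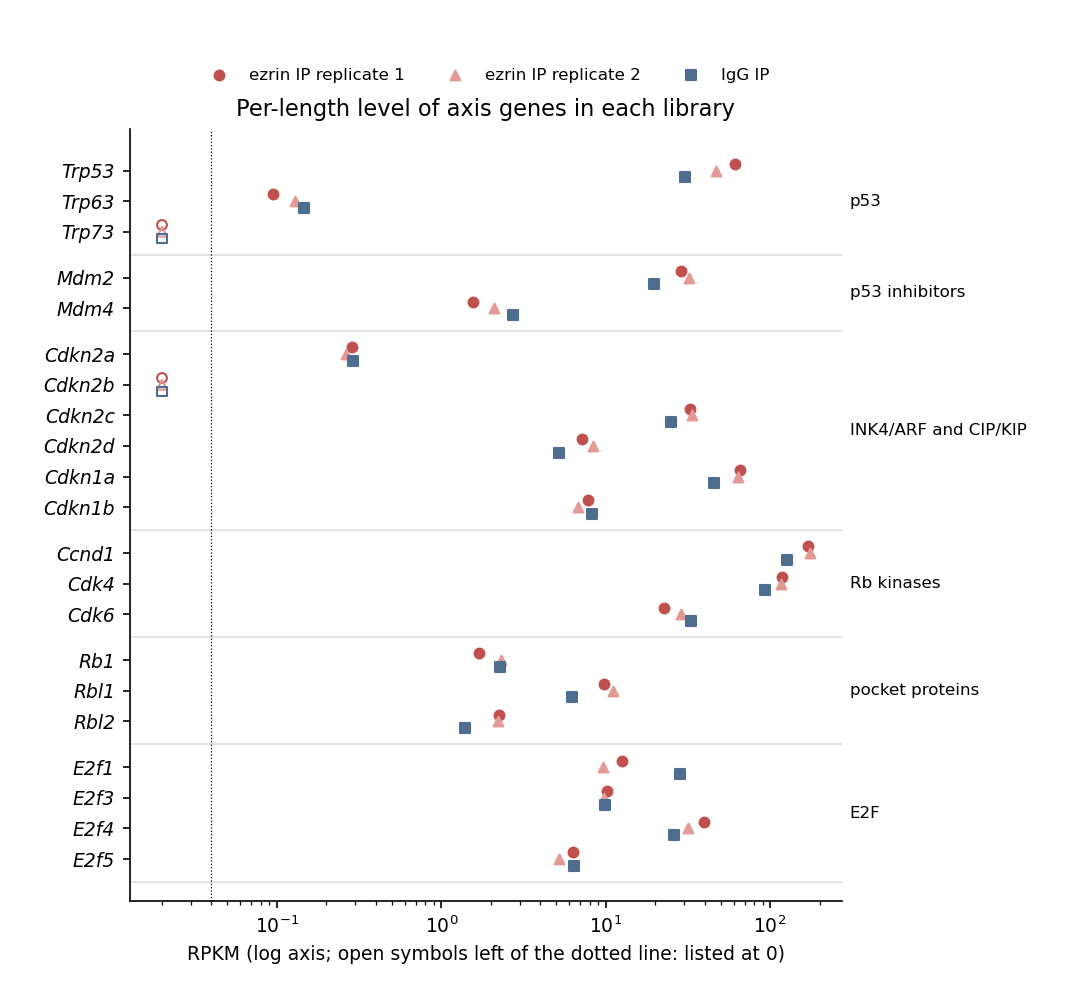
Deposited RPKM on a log axis for members and the axis genes around them, by role, with 1 symbol per library and open symbols for genes listed at 0. Trp53 and Mdm2 sit between 19.8 and 61.4 RPKM, Mdm4, Rb1 and Rbl2 between 1.40 and 2.74, Cdkn2a under 0.3, and Trp73 and Cdkn2b are listed at 0.

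Upstream of both pathways, the message of Cdkn2a was close to absent. This gene encodes Arf, which restrains Mdm2, and p16, which inhibits Cdk4 and Cdk6. It had 8 and 6 counts in the ezrin libraries and 5 in IgG, or 0.399 and 0.358 CPM against 0.523 CPM, too few to be tested. Its neighbour Cdkn2b, 11.7 kb away on chromosome 4 and coding for the related inhibitor p15, had 0 counts in every library, which allows up to 0.150 and 0.179 CPM in the ezrin libraries and 0.314 CPM in IgG (3 counts per library). Mtap, 93.4 kb away on the other side and named after its values were seen, had 2481 and 2517 counts in the ezrin libraries and 1457 in IgG. The other inhibitors of the same family were present: Cdkn2c (p18) had 32.7 and 33.6 RPKM in the ezrin libraries and 24.9 in IgG, and Cdkn2d (p19) had 7.23 and 8.32 in the ezrin libraries and 5.17 in IgG. No DNA was measured, so loss of the locus and lack of transcription cannot be told apart. Counts of 0 were not rare, since 31.9% of protein-coding symbols had none in any library.

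Among other regulators of p53, messages moved both ways. Of 27 genes in the list 26 were tested, 9 were higher, 6 lower and 11 not called, that is 34.6% higher and 23.1% lower against 19.0% and 17.4% of all tested genes. The median log2 fold was 0.28 against −0.02 over all genes tested. The higher ones included kinases and partners of the DNA damage response: Trp53bp1 (log2 fold 1.31), Chek1 (1.27), Prkdc (1.12) and Chek2 (1.10). Trp53bp1, the damage scaffold 53BP1, had 124 and 126 CPM in the ezrin libraries against 50.3 CPM in IgG (adjusted p = 5.11e-06 by edgeR). The deubiquitinase Usp7 (0.69), which acts on both Mdm2 and p53, the acetyltransferase Kat5 (1.14), the Mdm2-binding nucleolar and ribosomal proteins Npm1 (0.71) and Rpl23 (0.71), and Wrap53 (0.76) were also higher. After cyclic loess Usp7 (0.39), Npm1 (0.07), Rpl23 (0.20) and Wrap53 (0.75) were no longer called. DESeq2 called neither Chek2 (adjusted p = 0.0788) nor Wrap53 (adjusted p = 0.194). Wrap53 also lost its call where genes under a mean of 10 CPM were left out. The lower ones included Hipk2 (−1.26), a kinase that activates p53, with 70.4 and 67.3 CPM in the ezrin libraries against 164 CPM in IgG. They also held the acetyltransferase Crebbp (−0.90), the methyltransferase Setd7 (−0.86), the kinases Dyrk2 (−0.78) and Csnk1a1 (−0.74), and Rchy1 (−0.98), a ubiquitin ligase for p53. With either RPKM setting Crebbp, Setd7, Dyrk2, Csnk1a1 and Rchy1 were not called. Atm and Atr, the kinases that start the response, were not called (edgeR adjusted p of 0.519 and 0.0505). After cyclic loess 5 of the list were higher and 6 lower (19.2% and 23.1%, against 12.7% and 15.2% of all genes), and its median was 0.00.

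Messages of p53 target genes were present at a wide range of levels, and more were lower than higher. Of 35 genes 31 were tested, 3 were higher, 9 lower and 19 not called, that is 9.68% higher and 29.0% lower against 19.0% and 17.4% of all tested genes. Mdm2, itself a target, is not in the list. The median log2 fold was 0.04, and it turned to −0.21 after cyclic loess and to −0.07 once genes with a mean under 10 CPM were dropped. With RPKM, 8 were higher and 3 lower, that is 25.8% and 9.68%, near the 29.9% and 7.73% of all genes with log2(RPKM + 1). The median of 0.36 there compares with 0.22 for all genes.

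Cdkn1a, which encodes the cell cycle inhibitor p21 and is the best known p53 target, was abundant. It had 276 and 262 CPM in the ezrin libraries and 250.2 CPM in IgG. The log2 fold of 0.11 missed the threshold (SE 0.23, adjusted p = 0.748 by edgeR). The lower ones included Ei24, with 79.3 and 86.3 CPM in the ezrin libraries against 194.5 CPM in IgG (log2 fold −1.23, adjusted p = 1.52e-06 by edgeR). They also held Ccng1 (−0.997), Eda2r (−0.99), Zmat3 (−0.97), Trp53inp1 (−0.90), the death gene Bbc3, which encodes Puma (−0.82), Sesn2 (−0.70) and Ccng2 (−0.70). Ccng2 lost its call with library size only, without the filter on low counts and after cyclic loess. DESeq2 did not call Ccng2, Sesn2 or Trp53inp1. With either RPKM setting Eda2r, Zmat3, Trp53inp1, Bbc3, Sesn2 and Ccng2 were not called. The higher ones were the DNA polymerase Polk (1.08), the repair gene Xpc (1.05) and the kinase Plk2 (0.86), which was the most abundant of the list per length. Xpc was not called by DESeq2 (adjusted p = 0.111), and Plk2 was not called after cyclic loess (0.30). Pmaip1, Perp, Trp53i11 and Rprm had 0 counts in all 3 libraries.

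On the Rb side, messages of the machinery that phosphorylates pocket proteins ranged from abundant to low and were mostly not called. The list held 15 genes: D and E cyclins, their kinases and inhibitors, and Cdc25a and Cdc37. Of these 13 were tested, 1 was higher and 2 lower, that is 7.69% and 15.4% against 19.0% and 17.4% of all tested genes. The E cyclins were low, with 7.18 and 5.84 RPKM in the ezrin libraries and 4.51 in IgG for Ccne1. Ccne2 had 3.01 and 4.30 RPKM in the ezrin libraries and 2.33 in IgG. The median log2 fold was 0.03, which turned to −0.26 after cyclic loess. Cyclin D1 (Ccnd1) led with 169.8 and 175 RPKM in the ezrin libraries and 126 in IgG, followed by Cdk4 with 118 and 116 in the ezrin libraries and 93.0 in IgG. Their log2 folds in CPM, 0.06 and −0.06, were not called (edgeR adjusted p of 0.845 and 0.858). Cdk6 had 376 and 464 CPM in the ezrin libraries against 715 CPM in IgG and was lower (log2 fold −0.77), as was cyclin D2, Ccnd2 (−0.68). The chaperone Cdc37, which loads Cdk4, was higher (0.68), though not after cyclic loess.

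Of the transcription factors and MuvB subunits that work with pocket proteins, few were called. Of 16 E2F, DP and MuvB genes, 1 was higher, 3 lower and 12 not called, that is 6.25% higher and 18.75% lower against 19.0% and 17.4% of all tested genes, so the lower share is near the background. The median log2 fold was −0.35, or 0.04 with log2(RPKM + 1). The lowest was E2f1, the activating E2F held back by Rb1. It had 47.0 and 35.1 CPM in the ezrin libraries against 138 CPM in IgG, which is −1.75 on the log2 scale (SE 0.23, adjusted p = 3.98e-12 by edgeR). Tfdp2 (−1.19), a dimer partner of E2Fs, and Lin54 (−0.66), the DNA-binding subunit of MuvB, were lower too. The call of Lin54 was not stable. It was lost with library size only, without the filter on low counts, with either RPKM setting and after cyclic loess. DESeq2 did not call Lin54 either (adjusted p = 0.166). Tfdp2 lost its call with log2(RPKM + 0.1). Lin37 (1.31), another MuvB subunit, was higher, with 347 and 224 counts in the ezrin libraries and 59 in IgG. Tfdp1 was the most abundant per length, at 65.4 and 61.5 RPKM in the ezrin libraries and 60.4 in IgG.

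Of 17 chromatin cofactors that work with pocket proteins, 5 were higher and 0 lower, that is 29.4% higher against 19.0% of all tested genes, of which 17.4% were lower. The median log2 fold was −0.07, or 0.26 with log2(RPKM + 1). At an unadjusted edgeR p under 0.05, 1 was lower, with no share of all genes given for that threshold. DESeq2 also called 5 higher and 0 lower, where 14.0% and 8.82% of all genes were. The higher ones were the histone-binding Rbbp7 (1.504), the DNA methyltransferase Dnmt1 (1.43), the deacetylase Hdac1 (1.23), the remodeller Smarca4 (1.18) and the corepressor Sin3b (0.996). Rbbp7 had 157 and 188 CPM in the ezrin libraries against 60.7 CPM in IgG. Its paralogue Rbbp4, also a retinoblastoma-binding protein, had 185 and 215 CPM in the ezrin libraries against 248 CPM in IgG and was not called. By the mean RPKM of the 3 libraries Ctbp1 was the most abundant of these cofactors, at 74.9 and 61.8 RPKM in the ezrin libraries and 58.9 in IgG. Smarca4, at 71.0 and 66.0 RPKM with anti-ezrin and 23.2 with IgG, was above it in ezrin replicate 2.

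E2F target genes, which pocket proteins repress, were the list with the most calls. Of 26 genes 20 were higher, 0 lower and 6 not called, that is 76.9% higher against 19.0% of all tested genes, with a median log2 fold of 1.15. At an unadjusted edgeR p under 0.05, 1 was lower, with no share of all genes given for that threshold. DESeq2 called 19 higher and 0 lower, where 14.0% and 8.82% of all genes were. The list was chosen with earlier results on replication genes of these libraries known, so its direction is not independent evidence. The replicative helicase subunit Mcm3 had the highest fold, with 494 and 467 CPM in the ezrin libraries against 120 CPM in IgG, a log2 fold of 2.004 (SE 0.25, adjusted p = 9.68e-14 by edgeR). Others that were higher included Mcm7 (1.97), Cdc6 (1.55), which loads that helicase, the mismatch repair gene Msh6 (1.53), Mcm4 (1.53) and the ribonucleotide reductase subunits Rrm1 (1.47) and Rrm2 (1.35). Pcna (1.12), the sliding clamp, was the most abundant per length, at 126 and 144 RPKM in the ezrin libraries and 47.7 in IgG. Those not called included Ccna2 (−0.50), Ung (−0.44), Tyms (0.31) and Ccnb1 (0.53). Ezrin replicate 1 alone gave a median of 1.052 and replicate 2 alone 1.16, while cyclic loess gave 0.91. Under the 8 alternative tests 19 to 22 genes were higher, where 12.7% to 30.0% of all genes were. The 22 came with RPKM, where the all-gene median was 0.22 or 0.34. The count holds for this list only, which is made up largely of replication genes. Other E2F-linked cell cycle genes were placed in other lists, and those named here were not higher. E2f1 (−1.75) was lower, while Foxm1 (−0.53), E2f8 (−0.57) and Mybl2 (−0.11) were not called. E2f7 (0.08), Cdc25a (0.09), Ccne1 (0.14) and Ccne2 (0.26) were not called either. Rb1, from the same pathway, also lay below 0.

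**Figure D4:**
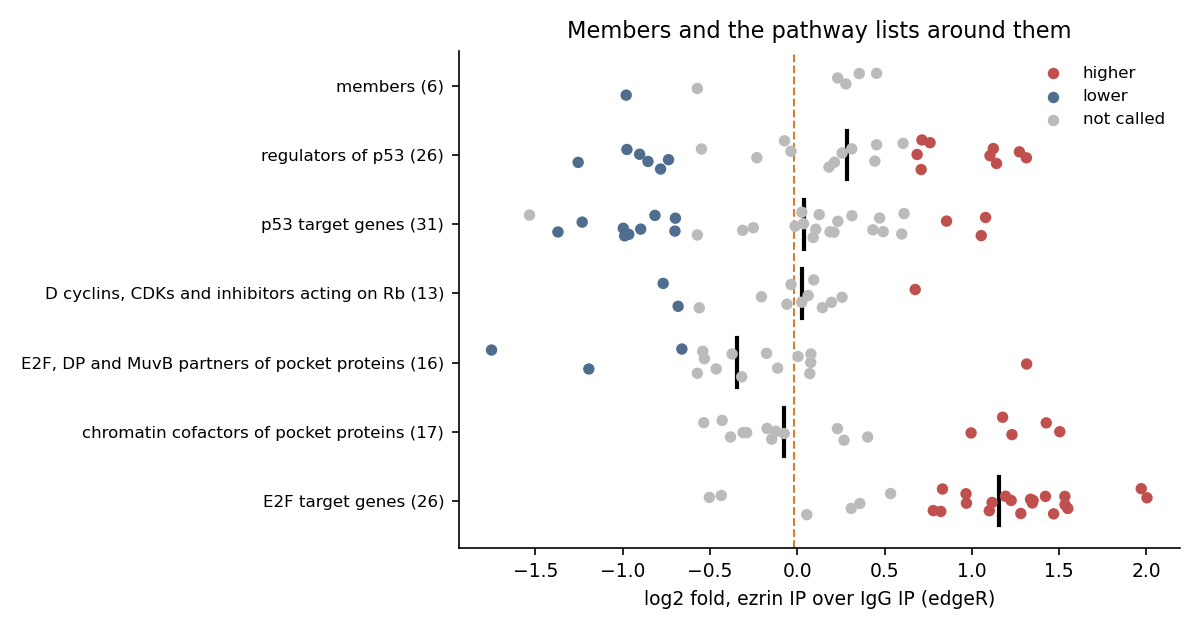
Log2 folds of the 6 members and of the genes in each pathway list (edgeR, ezrin IP over IgG IP), coloured by call, with a black bar at each list's median and a dashed line at the median of all tested genes, −0.02. The E2F target genes sit mostly right of 0.5, up to 2.004, while the members lie between −0.98 and 0.45.

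To show what such a target carries in its promoter, RefSeq promoter windows (GRCm38.p6) were searched for the 8 letter E2F motif TTTCGCGC or TTTGGCGC on either strand, within 250 bases before an annotated start. A gene can have several windows, and those shown for Orc1 and Uhrf1 belong to starts inside the gene's annotated span. Windows were given for 5 of the 6 members, and Rbl1, itself a known E2F target, was the 1 that held it. Of 21 E2F target genes with a window 6 held it, 28.6%, against 0.759% of all 27025 symbols with one. These genes were listed for their textbook role as E2F targets, so that excess is not independent evidence. The 27025 symbols were not limited to expressed genes. The sequences of Rbl1 and of 3 targets that were higher are printed 5′ to 3′ on the gene's strand, with the motif or its reverse complement in capitals. They lie at chr2:157204535-157204564 (minus strand), chr10:69353024-69353055 (minus), chr17:56304116-56304147 (plus) and chr4:108579415-108579446 (plus).
Rbl1: caagaaggcgatTTTCGCGCgctttgtcgc
Cdk1: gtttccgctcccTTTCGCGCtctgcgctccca
Uhrf1: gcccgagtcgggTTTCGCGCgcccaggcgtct
Orc1: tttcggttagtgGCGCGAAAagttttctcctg
In Rbl1 the motif begins at position −18 from the annotated start. Rbl1 shares these letters with the mitotic kinase Cdk1 (log2 fold 1.10), the methylation factor Uhrf1 (1.34) and the origin subunit Orc1 (0.97), which were called higher, while Rbl1, at 0.36, was not. DESeq2 did not call Orc1 (adjusted p = 0.137). RIP-seq counts RNA and does not measure binding at promoters.

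The genes whose CPM in the 3 libraries lay nearest, by Euclidean distance on log2(CPM + 1) among 11363 named genes, included Scrib (distance 0.10) for Trp53, Ank3 (0.03) and Itgav (0.06) for Mdm2, and Atf2 (0.05) and Mosmo (0.06) for Mdm4. For the pocket proteins they were Ccn3 (0.06) and Tmem267 (0.07) for Rb1, Mtch2 (0.05) and Tspyl1 (0.06) for Rbl1, and Dnajc16 (0.04) and Ankmy2 (0.05) for Rbl2. These distances rest on 3 libraries and say nothing of shared function.

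**Figure D5:**
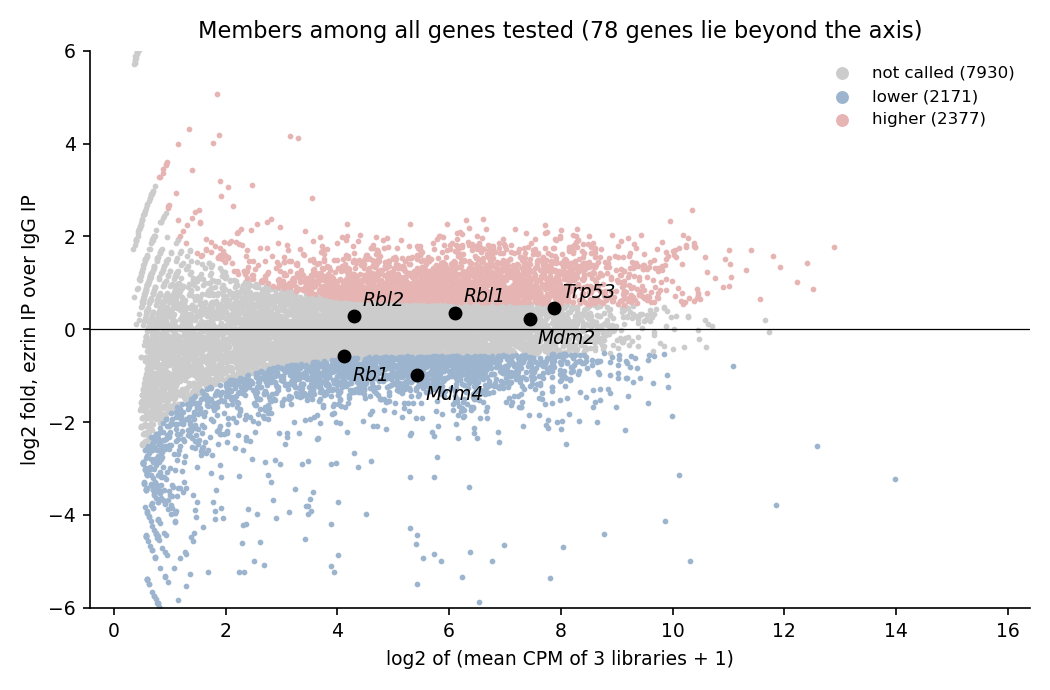
Log2 fold of ezrin IP over IgG IP against log2 of the mean CPM plus 1 for 12478 tested genes, coloured by edgeR call, with the 6 members in black, and 78 genes lie outside the plotted range of 6 on either side. Mdm4 lies inside the band of lower genes at −0.98, and the other 5 members lie among genes that were not called.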

How the data were processed

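Per the labels' protocols, RNA was recovered with a commercial RIP kit from 3 samples and depleted of ribosomal RNA (the labels also say polyA RNA, which was not settled). Deposited values are raw counts by gene symbol and RPKM, both made by the authors, and per the submitters' processing notes the build was GRCm38. The aligner, counter, annotation, strand and multi-mapping rule are not given in the sources here. Counts were tested with edgeR 4.0.16 (R 4.3.3), with TMM, filterByExpr by group (12478 genes kept), the quasi-likelihood test and Benjamini-Hochberg adjustment over all genes at 0.05. Only the 2 ezrin libraries inform the spread (1 residual degree of freedom, pooled over genes), which is assumed to hold for IgG too. The prior degrees of freedom were infinite, so a gene's own replicate spread had no weight in its SE or p. SE is the size of the log2 fold over the square root of F, and 95% intervals are approximate. They are not adjusted for multiple tests. Single-library ratios add 1 CPM. Poisson intervals and the floor of 3 counts cover counting error only. RPKM served for levels between genes and, with limma 3.58.1, as an alternative. DESeq2 1.42.0 was another. The edgeR script was tested on simulated data. RefSeq GRCm38.p6 tables gave biotypes and positions and matched 30407 of 41743 symbols. Named genes are the 6 members, Ezr, called members and the most abundant gene of each list, and the 2 nearest genes per member. Some genes under these rules are not reported here. Others named were chosen after their values were seen. Members and lists were chosen with earlier results of these data known.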

Additional observations from a re-analysis of the deposited data

How the results depend on the processing

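With 2 ezrin libraries against 1 IgG library, precision is limited by library number more than by depth, and Rb1 and Rbl2, with 156 to 406 counts, are measured least well. No paired analysis was possible because the groups share 1 replicate number only. Leaving out an ezrin library leaves no residual degree of freedom, so such values have no test: Rbl2 then ranged from 0.23 to 0.30. All 6 members stayed detected at 5 CPM and at 1 RPKM. Mdm2 turned to −0.032 after cyclic loess. Mdm4 lost its call with RPKM (−0.41 with a pseudocount of 1 and −0.57 with 0.1). Trp53 passed on the higher side with library size only (0.57) and with RPKM (0.81 and 0.83), Mdm2 (0.60 and 0.62) and Rbl1 (0.66 and 0.73) with RPKM, while Rb1 was called lower with genes under 10 CPM left out (−0.68). Members called were thus 1 higher with library size only, 2 lower at 10 CPM, and 3 higher and 0 lower with either RPKM setting. Of all genes, 23.0% were higher with library size only. At 10 CPM, 21.4% of 8598 genes were higher and 21.7% lower. With RPKM, 29.9% and 30.0% of all genes were higher and 7.73% and 6.76% lower. The median of all genes was 0.22 or 0.34 with RPKM and 0.10 with library size only. Over all genes, 3734 and 3745 were higher and 964 and 843 lower with RPKM, 1580 higher after cyclic loess, and 1101 lower with DESeq2. At 10 CPM, 6 of 14 E2F, DP and MuvB genes, 1 of 16 chromatin cofactors and 1 of 26 E2F targets were lower. With either RPKM setting, 1 regulator of p53 was lower, 8 p53 targets were higher and 3 lower, and 0 genes of the D cyclin list were lower, and with 0.1 added 1 E2F, DP or MuvB gene was lower. After cyclic loess, 5 regulators of p53 and 0 genes of the D cyclin list were higher, and 2 chromatin cofactors and 1 E2F target lower. The folds of uncalled genes near 0 changed sign: Cdk4 with library size only (0.061), no filter (0.034) and RPKM (0.33 and 0.33), Ccnd1 (−0.049) and Cdkn1a (−0.00518) at 10 CPM, Ccnd1 (−0.56) and Cdkn1a (−0.24) after cyclic loess, and Tfdp1 (0.069 and 0.070) and Ctbp1 (0.20 and 0.21) with RPKM. At 10 CPM the p53 family list had no gene left. The cause of these changes was not tested.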
